A study of Daphnia magna with 15 samples.

Results

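Carbohydrate-digesting glycoside hydrolases of the water flea *Daphnia magna* were described across 5 diets at 15 °C. Members were taken by product name, as every gene whose annotation contained amylase, maltase, glucosidase, glucanase, cellulase, cellobiohydrolase, mannanase, mannosidase, galactosidase, fucosidase, trehalase or glucan-branching. These letters matched 64 of the 26646 genes listed. The 5 matched tubulin polyglutamylases, which add glutamate to tubulin and only share the letters "amylase", were set apart, which left 59 members. They fell by name into 18 mannosidases, 11 glucosidases of N-glycan trimming and of the lysosome, 9 enzymes of starch and maltose, 7 of beta-glucan and cellulose, 6 mannanases, 3 galactosidases, 2 fucosidases, 2 trehalases and 1 glycogen-branching enzyme.

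RNA-seq was done on whole animals of a single clone, P132.85, all raised from birth on 1 diet at 15 °C and frozen as parthenogenetic mothers with a first clutch in the brood pouch. CRY animals ate *Cryptomonas*, a cryptomonad alga that holds eicosapentaenoic acid (EPA) by nature. CY + EPA animals ate the cyanobacterium *Synechococcus elongatus* with EPA given in liposomes, and CY animals the same cyanobacterium without EPA. Both CY diets also carried cholesterol and a C18 fatty acid supplement, per the study's methods, so the CY and GA diets differed in more than the food organism. GA + EPA animals ate the green alga *Acutodesmus obliquus* with EPA liposomes, and GA animals the green alga without EPA. The labels name no liposomes for GA, but the study's methods say that the green alga group taken for sequencing had been given empty control liposomes, and that food alone was not sequenced. In contrasts with GA, empty liposomes may therefore be part of the GA condition, and they cannot be told apart from the diet where the other group had none. Each diet had 3 libraries, each from a pool of animals that the labels give as 3 in one place and as 5 in another. The p-values below measure the spread between such pools of 1 clone.

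Glycoside hydrolases cut the bonds between sugars. Amylases cut starch into short chains, and maltases release glucose from maltose. Endoglucanases cut inside cellulose and other beta-glucans and cellobiohydrolases release cellobiose from chain ends, while endo-mannanases cut mannans of cell walls and stores. Galactosidases, fucosidases, mannosidases and lysosomal glucosidases take single sugars off glycans, many of them in the lysosome, and another set of mannosidases and glucosidases trims N-glycans on proteins inside the endoplasmic reticulum and Golgi. Trehalase splits trehalose, the main blood sugar of many insects, and the branching enzyme builds glycogen.

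Summed expected counts per library lay between 18062681 and 22287959. In 3 groups a single library stood apart from the other pair, as measured by chi-square per gene between libraries. It reached 85.2 and 134 for GA + EPA 1, against 16.8 between the other 2 libraries of that diet. It was 118 and 65.2 for CY 1, against 42.7, and 44.6 and 63.2 for CY + EPA 2, against 13.3. CRY 2 was at 18.1 and 30.7, against 10.7 between the other 2 libraries of its diet, and pairs within GA lay between 8.9 and 11.3. No cut-off was set, and CRY 2 was not counted among the 3 libraries that stood apart. Markers of the gut, yolk synthesis, eye, muscle, haemolymph and cuticle were all present. In these whole-animal pools, fewer cells of a type and less RNA per cell cannot be told apart.

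By FPKM, which is per transcript length and so allows genes to be compared, a few members made up most of the RNA. The most abundant was alpha-amylase 1 KZS16400.1, with a mean of 446 FPKM over the 15 libraries, which was 16.7% of the FPKM summed over members. Beta-galactosidase KZS05123.1 (256 FPKM), cellobiohydrolase CHBI KZS17998.1 (241 FPKM), alpha-amylase KZS13652.1 (236 FPKM) and endoglucanase KZS03923.1 (195 FPKM) followed. These 5 genes held 51.5% of the summed FPKM, and maltase A6 KZS09326.1 (186 FPKM) brought the share to 58.5%. By class, starch and maltose enzymes held 40.5%, beta-glucan and cellulose enzymes 18% and the 18 mannosidases 13.3%. At the low end, putative endo-beta-1.4-mannanase KZR98329.1 had 2 to 13 reads per library and was tested in no comparison, so 58 of the 59 members entered a test.

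**Figure D1:**
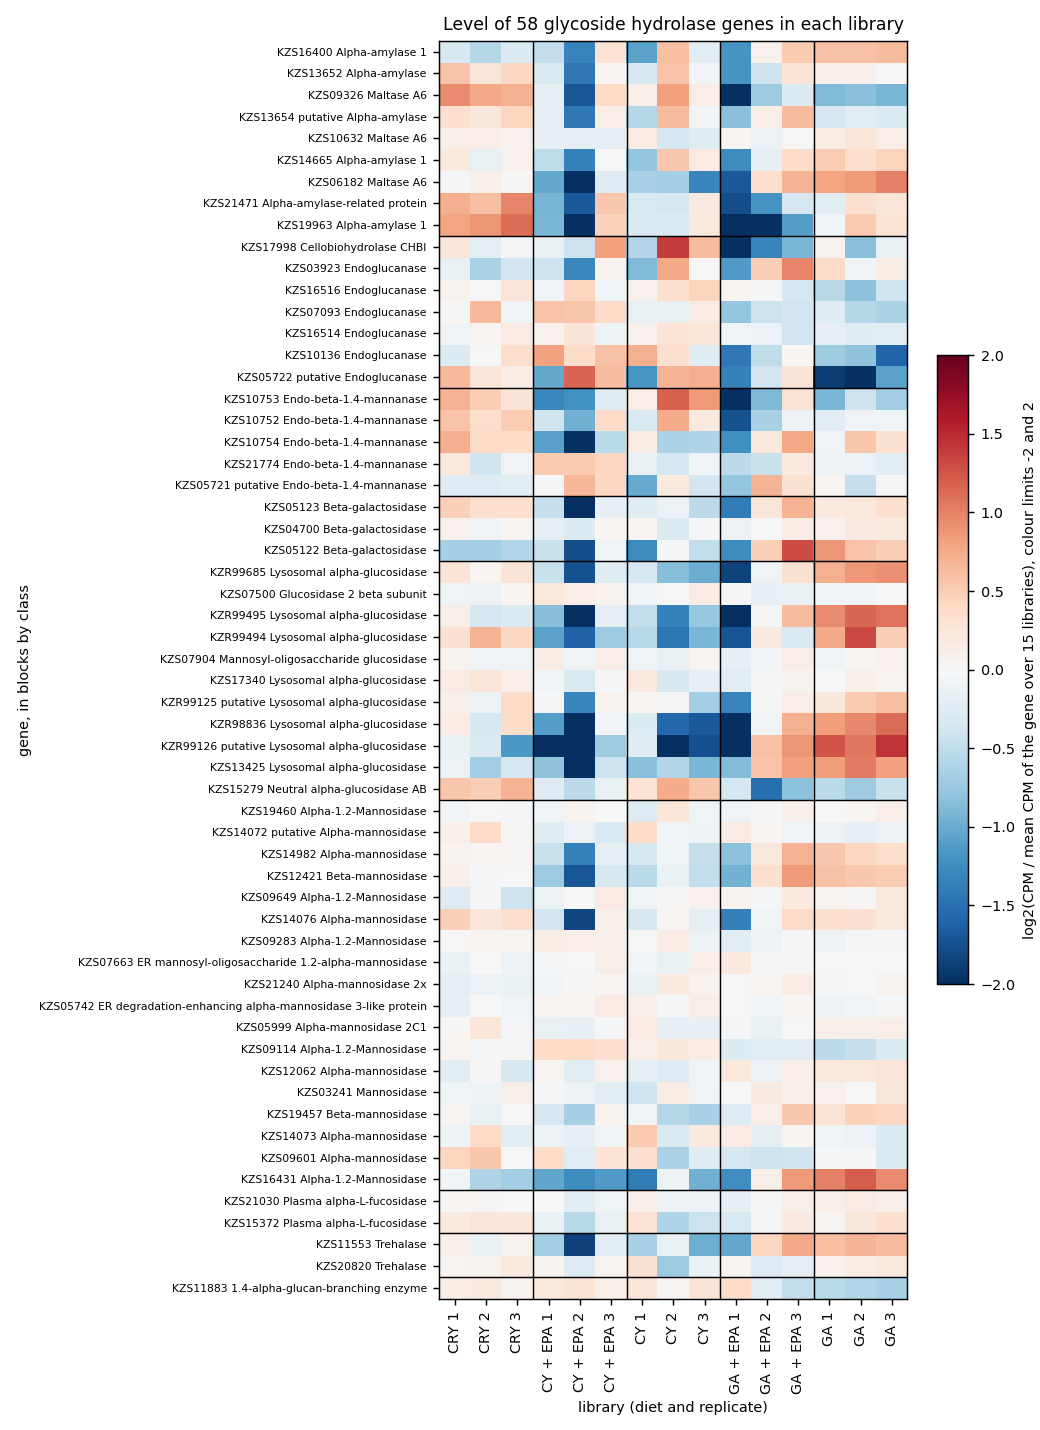
Level of each of the 58 tested members (rows, grouped by class) in each of the 15 libraries (columns, by diet), as log2 of CPM over the gene's own mean. GA + EPA 1 and CY + EPA 2 are low across many digestive members, whereas most rows of the N-glycan trimming mannosidases are even throughout.

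Between a single gene's libraries, levels are given below as TMM-scaled CPM, which are counts relative to library size, in order of replicate. Genes were called where edgeR's quasi-likelihood test gave an adjusted p no higher than 0.01, with the Benjamini-Hochberg adjustment over all genes tested. In CRY against GA, 20 of 58 members were called, 9 higher and 11 lower, beside 16.2% of all genes tested (6.62% higher and 9.59% lower). The median log2 fold change of the members was -0.04, and that of all genes was -0.004. In CY against GA, 12 of 57 members were called, 5 higher and 7 lower, beside 5.99% of all genes tested (1.27% higher and 4.72% lower), with a member median of -0.20. At an unadjusted p of 0.05, 28 of the 57 passed in CY against GA, beside 29.8% of all genes tested, and the CY and GA levels of 29 did not overlap, beside 37.1% of all genes. The CRY and CY comparisons share the 3 GA libraries, so their fold changes are given side by side only.

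The enzymes of starch and maltose moved in both directions within the class. In CRY against GA 2 of 9 rose and 2 fell, beside 6.62% of all genes tested called higher and 9.59% lower. In CY against GA 1 rose and 1 fell, beside 1.27% and 4.72%. All 9 had levels that did not overlap between CRY and GA, beside 46.1% of all genes tested, with 5 higher and 4 lower in CRY.

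The 2 called maltases went opposite ways. Maltase A6 KZS09326.1 (scaffold LRGB01002076.1, 142006 to 144586, minus strand) had 728, 640 and 619 CPM in CRY and 412, 667 and 414 CPM in CY, against 206, 213 and 202 CPM in GA. Every library of both diets was above every GA library. The gene rose 3.21-fold in CRY (log2 fold change 1.68, SE 0.07, edgeR adjusted p = 3.4e-06) and 2.36-fold in CY (1.24, SE 0.19, edgeR adjusted p = 0.0076). Maltase A6 KZS06182.1 (scaffold LRGB01002836.1, 48375 to 50417, minus strand) had 75.7, 84.2 and 79.5 CPM in CRY and 49.6, 48.8 and 31.1 CPM in CY, against 136, 141 and 158 CPM in GA. It fell in CRY (log2 fold change -0.86, SE 0.08, edgeR adjusted p = 1.2e-04) and in CY (-1.77, SE 0.19, edgeR adjusted p = 0.0020), again without overlap. The third gene annotated as maltase A6, KZS10632.1, which was picked out here after its values were seen, stayed between 88.8 and 135 CPM in all 15 libraries and was called in no comparison.

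Among the 5 alpha-amylases the most abundant and a neighbouring pair also differed in direction. Alpha-amylase 1 KZS16400.1 (scaffold LRGB01000725.1, 861802 to 864341, minus strand) had 538, 453 and 556 CPM in CRY, against 1010, 1004 and 1038 CPM in GA, and fell 1.97-fold (log2 fold change -0.98, SE 0.08, edgeR adjusted p = 7.8e-05). Its CY libraries, at 319, 1022 and 580 CPM, spanned the range down from the GA level, and the gene was not called there. Putative alpha-amylase KZS13654.1 had 158, 147 and 168 CPM in CRY, against 99.4, 107 and 103 CPM in GA, and rose by 0.61 on the log2 scale (SE 0.07, edgeR adjusted p = 3.8e-04). Its neighbour on scaffold LRGB01001036.1, alpha-amylase KZS13652.1, had 864, 690 and 779 CPM in CRY and 625, 625 and 582 CPM in GA, a log2 fold change of 0.35 that was not called (edgeR adjusted p = 0.0152).

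A low-abundance member, alpha-amylase 1 KZS19963.1, singled out after its values were seen, had the widest range between diets in the class. It had 36.1, 38.5 and 45.4 CPM in CRY, 11.1, 4.86 and 28.9 CPM in CY + EPA, 17.4, 17.3 and 24.3 CPM in CY, 1.93, 3.61 and 9.74 CPM in GA + EPA, and 19.7, 29.97 and 25.5 CPM in GA. The highest group mean was 7.87 times the lowest. The 3 GA + EPA libraries lay below all others but CY + EPA 2.

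**Figure D2:**
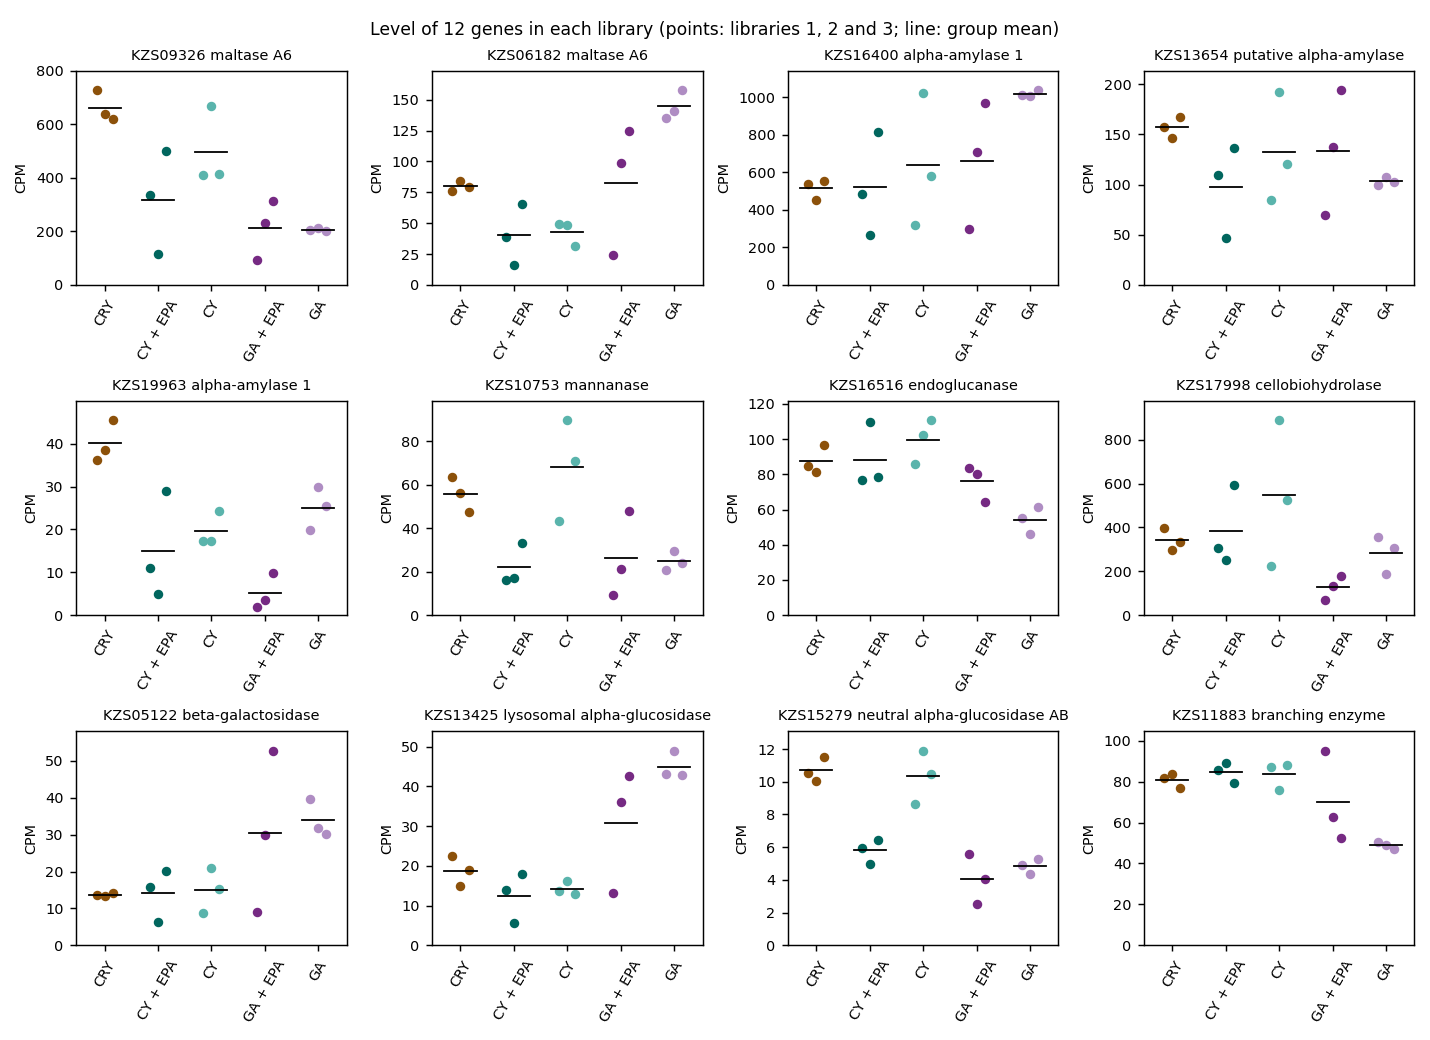
CPM (TMM-scaled) of 12 members in the 15 libraries, one panel a gene, with a dot for each library, a line at the group mean and an axis of its own. Maltase KZS09326.1 is above GA in all CRY and CY libraries, maltase KZS06182.1 is below GA in them, and the 3 libraries of a diet with EPA liposomes are often far apart.

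Ratios between 2 members within a library do not depend on the scaling between libraries. They were formed after the values had been seen and are given as a description, with no test. The ratio of maltase KZS09326.1 to maltase KZS06182.1 was 9.62, 7.61 and 7.79 in CRY, 8.71, 7.06 and 7.66 in CY + EPA, 8.3, 13.7 and 13.3 in CY, 3.83, 2.35 and 2.5 in GA + EPA, and 1.52, 1.51 and 1.28 in GA. The 9 libraries without green alga did not overlap the 6 with it, and GA + EPA lay above GA in all 3 libraries. The ratio of amylase KZS13654.1 to amylase KZS16400.1 lay between 0.294 and 0.324 in CRY, 0.167 and 0.228 in CY + EPA, 0.189 and 0.264 in CY, 0.194 and 0.237 in GA + EPA, and 0.0984 and 0.107 in GA. Here the GA libraries stood below all 12 others, the GA + EPA libraries included.

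**Figure D3:**
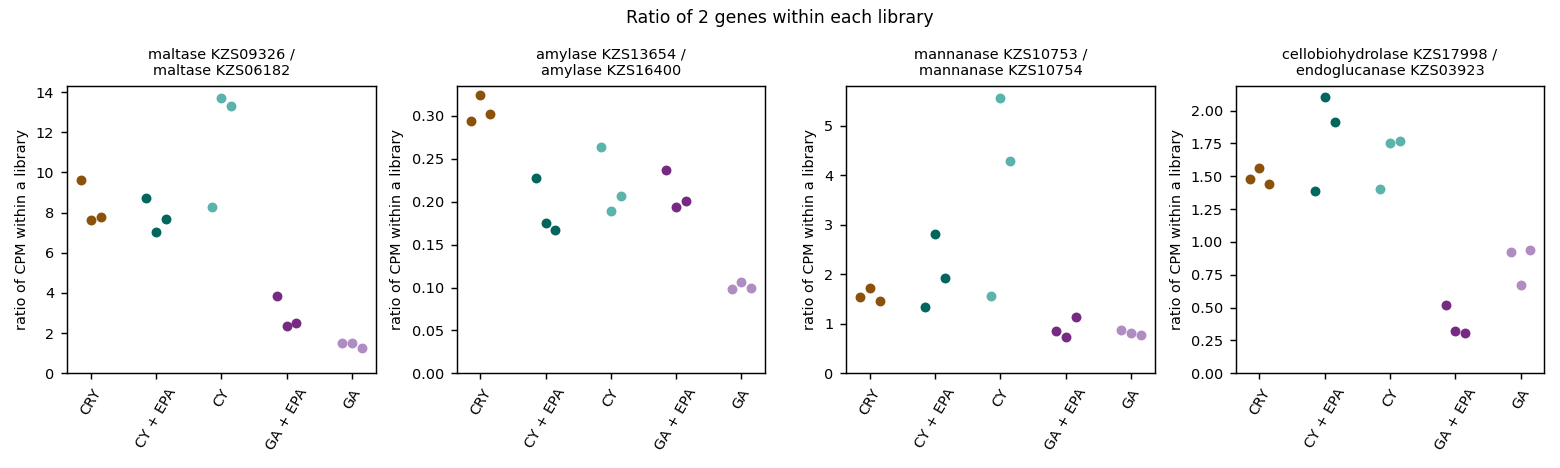
Ratio of the CPM of 2 members within each library, for the maltases KZS09326.1 and KZS06182.1, the amylases KZS13654.1 and KZS16400.1, the mannanases KZS10753.1 and KZS10754.1, and cellobiohydrolase KZS17998.1 with endoglucanase KZS03923.1, with a dot for each library. The maltase ratio lies between 1.28 and 1.52 in GA and at 7.06 or more in every library without green alga.

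Of the enzymes that cut beta-glucan and cellulose, 2 of 7 rose and none fell in CRY against GA. In CY against GA 1 of 6 rose and none fell. Of all genes tested, 6.62% were called higher in CRY against GA and 1.27% in CY against GA. Endoglucanase KZS16516.1 had 85.0, 81.4 and 96.5 CPM in CRY and 86.0, 102 and 111 CPM in CY, against 55.4, 45.8 and 61.6 CPM in GA. It rose by 0.69 in CRY (SE 0.11, edgeR adjusted p = 0.0025) and by 0.85 in CY (SE 0.14, edgeR adjusted p = 0.0092) on the log2 scale. Putative endoglucanase KZS05722.1 had 28, 22 and 19 reads in CRY against 6, 2 and 11 reads in GA, and rose with a wide error (log2 fold change 2.12, SE 0.44, edgeR adjusted p = 0.0085). With so few reads, the call was lost when any one of 5 of the 6 libraries was left out.

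The 2 abundant members of this class were called in no comparison. Cellobiohydrolase CHBI KZS17998.1 had 398, 299 and 332 CPM in CRY, 307, 252 and 595 CPM in CY + EPA, 225, 889 and 525 CPM in CY, 69.5, 134 and 180 CPM in GA + EPA, and 355, 188 and 307 CPM in GA. Endoglucanase KZS03923.1 lay between 192 and 268 CPM in CRY, 120 and 311 CPM in CY + EPA, 161 and 507 CPM in CY, 134 and 585 CPM in GA + EPA, and 280 and 386 CPM in GA. KZS03923.1 spanned more CPM within CY + EPA, within CY and within GA + EPA than between the diet means, and KZS17998.1 did so within CY only. Their ratio was steadier, at 1.44 to 1.56 in CRY, 1.39 to 2.1 in CY + EPA, 1.4 to 1.77 in CY, 0.307 to 0.518 in GA + EPA and 0.672 to 0.938 in GA, so that every library with green alga was below every library without it.

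Endo-beta-1.4-mannanases gave 2 calls among 5 tested, both higher in CRY against GA, where 6.62% of all genes tested were called higher. Mannanase KZS10753.1 had 63.8, 56.3 and 47.4 CPM in CRY and 43.3, 89.8 and 71.1 CPM in CY, against 20.9, 29.6 and 24.2 CPM in GA. It rose by 1.17 in CRY (SE 0.14, edgeR adjusted p = 6.4e-04), whereas the log2 fold change of 1.42 in CY was not called (SE 0.26, edgeR adjusted p = 0.0148). Its neighbour KZS10752.1 had 77.1, 66.2 and 73.4 CPM in CRY against 44.2, 49.4 and 49.0 CPM in GA, and rose by 0.61 (edgeR adjusted p = 6.4e-04). The next gene on the scaffold, KZS10754.1, singled out by position after its values were seen, had 41.2, 32.6 and 32.2 CPM in CRY and 23.9, 36.7 and 30.9 CPM in GA, and these ranges overlap. Mannanase KZS21774.1, on another scaffold, lay between 2.98 and 6.18 CPM in all libraries and was called in none of the comparisons. Its CY + EPA libraries, at 6.18, 6.14 and 5.74 CPM, were above those of all other diets, as seen after the fact.

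Among the galactosidases, which remove terminal galactose, 1 of 3 fell in CRY and none was called in CY. Of all genes tested, 9.59% were called lower in CRY against GA, and 5.99% were called in CY against GA. Beta-galactosidase KZS05122.1 had 13.6, 13.5 and 14.3 CPM in CRY, against 39.7, 31.8 and 30.3 CPM in GA, and fell by 1.30 (SE 0.11, edgeR adjusted p = 1.1e-04). The more abundant KZS05123.1 (256 FPKM, against 9.58 FPKM), 993 bases away on scaffold LRGB01002993.1, had 922, 832 and 837 CPM in CRY and 757, 766 and 828 CPM in GA and was not called. Beta-galactosidase KZS04700.1 was even, at 27.5 to 38.8 CPM in all 15 libraries.

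Genes named lysosomal alpha-glucosidase, an enzyme that breaks down glycogen in the lysosome, had most calls downwards, but not all of them fell. In CRY against GA, 4 of the 11 genes of the glucosidase class fell and 1 rose, beside 9.59% and 6.62% of all genes tested. In CY against GA 3 fell and 1 rose, beside 4.72% and 1.27%. The longest model of the name, KZS17340.1 of 5059 bases, was picked out after its values were seen. It lay between 81.7 and 121 CPM in all libraries and was called in no comparison. Besides KZS13425.1, the lysosomal genes that fell are models of 486 to 1293 bases and need not be separate whole genes. Lysosomal alpha-glucosidase KZS13425.1 (scaffold LRGB01001151.1, 46032 to 59592, plus strand) had 22.5, 14.9 and 19.1 CPM in CRY and 13.7, 16.2 and 12.9 CPM in CY, against 43.2, 49.1 and 42.9 CPM in GA. It fell by 1.26 in CRY (SE 0.14, edgeR adjusted p = 3.4e-04) and by 1.69 in CY (SE 0.11, edgeR adjusted p = 5.6e-04). No CRY or CY library was above 22.5 CPM, while no GA library was below 42.9 CPM. With EPA on the green alga the libraries were at 13.2, 36.2 and 42.6 CPM.

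KZR99685.1 was the most abundant of these genes, at a mean of 71.4 FPKM. It had 94.4, 80.7 and 93.9 CPM in CRY and 63.0, 43.6 and 39.5 CPM in CY, against 129, 143 and 148 CPM in GA, with log2 fold changes of -0.64 in CRY (edgeR adjusted p = 9.2e-04) and -1.55 in CY (edgeR adjusted p = 0.0029). KZR99495.1 fell by 1.21 in CRY (edgeR adjusted p = 1.8e-04) and by 1.91 in CY (edgeR adjusted p = 0.0022). Both models begin at base 1 of a short scaffold, so neither need be a whole gene. Putative lysosomal alpha-glucosidase KZR99126.1 had 63, 59 and 30 reads in CRY against 207, 156 and 245 reads in GA and fell by 1.72 in CRY (SE 0.24, edgeR adjusted p = 0.0013). The 2 shortest models, KZR98836.1 of 271 bases and KZR99494.1 of 203 bases, had expected counts that were not whole in 14 libraries, as happens when reads are divided between like sequences, and were called in no pairwise comparison.

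Neutral alpha-glucosidase AB KZS15279.1, by name the catalytic subunit of the glucosidase that trims N-glycans in the endoplasmic reticulum, went the other way. It had 10.6, 10.03 and 11.5 CPM in CRY and 8.65, 11.9 and 10.5 CPM in CY, against 4.90, 4.38 and 5.26 CPM in GA. It rose by 1.14 in CRY (SE 0.12, edgeR adjusted p = 2.9e-04) and by 1.06 in CY (SE 0.16, edgeR adjusted p = 0.0073). Its CY + EPA libraries, at 5.96, 5.0 and 6.46 CPM, lay below every CY library and reached into the GA range. Its partner by name, glucosidase 2 beta subunit KZS07500.1, lay between 75.2 and 97.0 CPM in all libraries and was not called, and mannosyl-oligosaccharide glucosidase KZS07904.1, which takes the first glucose off the N-glycan and was picked out after its values were seen, lay between 60.4 and 74.7 CPM. At 2.79 FPKM against 47.3 FPKM, the gene named as catalytic subunit was far less abundant than the one named as beta subunit.

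Among the members, the one with the most even group means was a mannosidase. The highest group mean was less than 1.5 times the lowest for 11 of 18 mannosidases. The class median of that ratio was 1.28, beside 1.97 for starch and maltose enzymes and 2.87 for the glucosidases. The ratio was not formed for all genes. The median absolute log2 fold change of the mannosidases was 0.26 in CRY against GA, beside 0.24 for all genes tested. In CY against GA it was 0.22, beside 0.23. Alpha-1.2-mannosidase KZS19460.1, the most abundant, had a ratio of 1.06, and the endoplasmic reticulum mannosyl-oligosaccharide mannosidase KZS07663.1, an early N-glycan trimming enzyme also picked out after its values were seen, had 1.11. In CRY against GA 1 mannosidase rose and 3 fell, beside 6.62% of all genes tested called higher and 9.59% lower. In CY against GA 1 rose and 2 fell, beside 1.27% and 4.72%. Alpha-1.2-mannosidase KZS09114.1 had 66.9, 62.6 and 65.4 CPM in CRY and 70.2, 75.2 and 72.2 CPM in CY, against 45.0, 47.0 and 53.2 CPM in GA, and rose by 0.43 in CRY (SE 0.07, edgeR adjusted p = 0.0031) and by 0.55 in CY (SE 0.09, edgeR adjusted p = 0.0074). Its libraries lay close together in every diet, with 83.1, 83.2 and 81.2 CPM in CY + EPA, against 53.4, 55.0 and 55.5 CPM in GA + EPA.

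Beta-mannosidase KZS12421.1, which removes the last mannose of N-glycans in lysosomes, had 118, 107 and 109 CPM in CRY and 75.5, 101 and 78.5 CPM in CY, against 166, 159 and 156 CPM in GA. It fell by 0.53 in CRY (edgeR adjusted p = 5.1e-04) and by 0.95 in CY (edgeR adjusted p = 0.0037), and its expected counts were not whole in any of the 15 libraries, so part of its reads was shared out by the counting. Alpha-mannosidase KZS14982.1 fell by 0.38 in CRY (edgeR adjusted p = 0.0031) and by 0.75 in CY (edgeR adjusted p = 0.0068). Alpha-1.2-mannosidase KZS16431.1, at 48, 34 and 30 reads in CRY and 125, 125 and 124 reads in GA, fell by 1.47 in CRY (SE 0.21, edgeR adjusted p = 0.0012). Neither plasma alpha-L-fucosidase was called. KZS21030.1 stayed between 22.9 and 30.1 CPM and KZS15372.1 between 22.1 and 42.2 CPM.

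The 2 trehalases differed. Trehalase KZS11553.1 had 32.2, 27.4 and 31.5 CPM in CRY and 19.2, 27.2 and 15.3 CPM in CY, against 45.5, 48.1 and 46.4 CPM in GA, and fell by 0.62 in CRY (SE 0.07, edgeR adjusted p = 5.3e-04) and by 1.21 in CY (SE 0.19, edgeR adjusted p = 0.0082). Trehalase KZS20820.1 was called in no comparison, with 45.1, 45.8 and 49.7 CPM in CRY and 54.0, 26.7 and 39.9 CPM in CY, against 46.3, 48.4 and 49.7 CPM in GA. The 1.4-alpha-glucan-branching enzyme KZS11883.1 had 82.0, 83.9 and 77.1 CPM in CRY and 87.4, 75.9 and 88.2 CPM in CY, against 50.6, 49.0 and 46.9 CPM in GA. It rose by 0.73 in CRY (SE 0.06, edgeR adjusted p = 7.4e-05) and by 0.75 in CY (SE 0.09, edgeR adjusted p = 0.0029).

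A list of 13 other genes of glycogen, trehalose and glucose handling was taken by name, of which 12 were tested. In CRY against GA 5 rose and 1 fell, beside 16.2% of all genes called (6.62% higher and 9.59% lower), and their median log2 fold change was 0.40, beside -0.004 for all genes. Phosphoglucomutase KZS16178.1, which links glucose 6-phosphate with glycogen, had 176, 169 and 167 CPM in CRY and 188, 172 and 173 CPM in CY, against 111, 110 and 111 CPM in GA. It rose by 0.63 in CRY (edgeR adjusted p = 9.7e-05) and by 0.65 in CY (edgeR adjusted p = 0.0029), where it was the 1 gene of the list called, beside 5.99% of all genes. Putative glycogen synthase KZS05401.1 (0.40), glycogen phosphorylase KZS14249.1 (0.44), UTP--glucose-1-phosphate uridylyltransferase KZS22058.1 (0.39) and the putative trehalose transporter Tret1 KZS10836.1 (0.96) rose on the log2 scale in CRY. Hexokinase KZS20576.1, which phosphorylates glucose, fell by 0.80 in CRY (edgeR adjusted p = 2.8e-04).

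**Figure D4:**
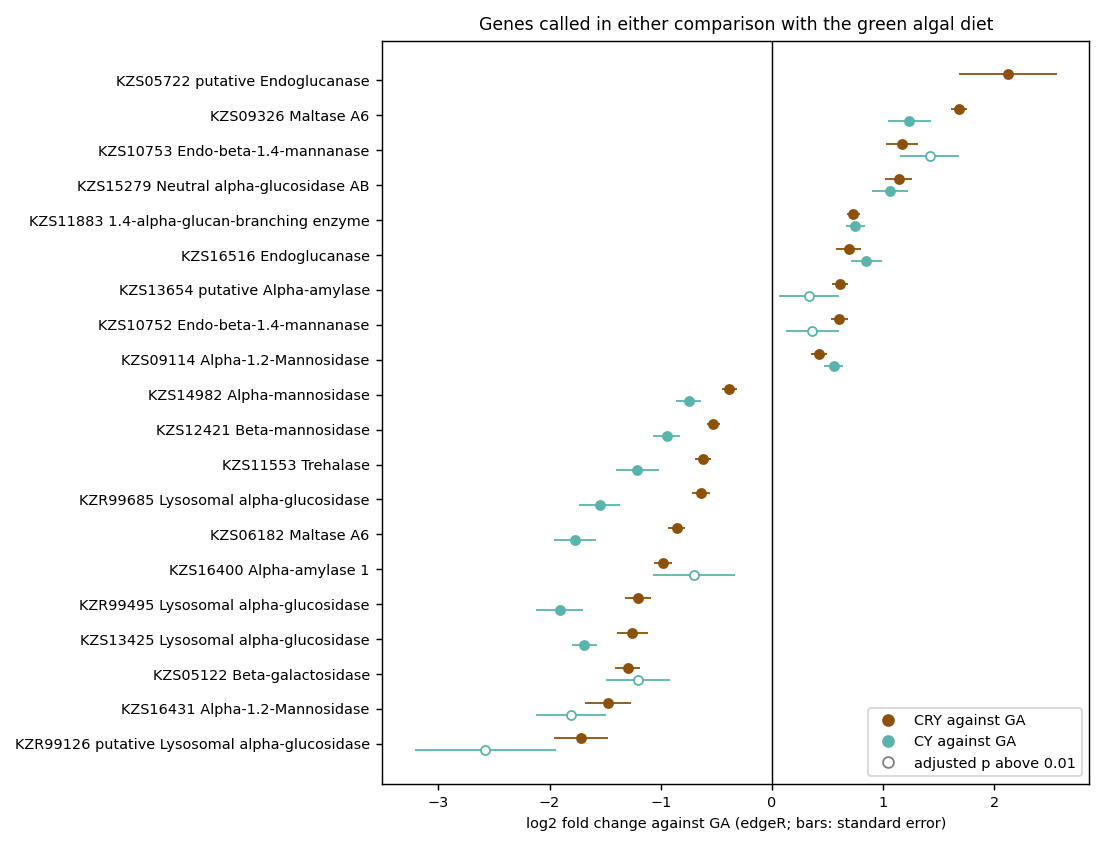
Log2 fold change (edgeR, horizontal axis) with its SE for the 20 members called in CRY or CY against GA, CRY above CY in each row, with open circles where the adjusted p was above 0.01. Among the genes called in CRY, putative endoglucanase KZS05722.1 lies furthest to the right with the widest error and lysosomal alpha-glucosidase KZR99126.1 furthest to the left. KZS05722.1 was not tested in CY against GA.

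Most calls in CRY against GA held when single libraries were left out, and most did not hold in a fit over all diets. Of the 20 calls, 15 were kept whichever of the 6 libraries was left out and were lost in one setting only, a single fit over all 15 libraries, and KZS15279.1 was kept in all settings. The other 4 were lost with some libraries left out, KZS14982.1 with 3 of the 6, KZS16516.1 with 2, KZS09114.1 with 4 and KZS05722.1 with 5. In the fit over 15 libraries 2 of 20 stayed called, KZS15279.1 and KZS09114.1, beside 5.68% of all genes. The biological coefficient of variation was 0.136 over the CRY and GA libraries and 0.21 over all 15. Calls in CY against GA depended on single libraries. With GA 1, GA 2 or GA 3 left out, 1 of 12 stayed called each time, KZS13425.1, beside 0.783% to 0.992% of all genes, and 4 were left without CY 3, beside 2.86%. None of the fold changes changed sign in any of these settings.

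Some tissue marker sums moved with the diets, and others overlapped between them. The 71 gut genes (trypsins, chymotrypsins and carboxypeptidases; 53 tested and 2 at 0 throughout) summed to 15740, 13620 and 14670 CPM in CRY, 10110, 5034 and 12370 CPM in CY + EPA, 10440, 15210 and 9151 CPM in CY, 7807, 18410 and 23380 CPM in GA + EPA, and 18370, 17560 and 19000 CPM in GA. Every CRY and CY library was below every GA library. The 18 vitellogenin-named genes, for yolk, ranged over 79010 to 110500 CPM in CRY, 76600 to 96680 CPM in CY + EPA, 68210 to 148400 CPM in CY, 24230 to 46450 CPM in GA + EPA and 9116 to 14640 CPM in GA. The eye list ranged over 857 to 914 CPM in CRY, 842 to 1316 CPM in CY and 1922 to 2129 CPM in GA. The haemolymph list ranged over 3010 to 3391 CPM in CY + EPA and 441 to 883 CPM in GA, the highest and lowest diets. The muscle list ranged over 3743 to 4021 CPM in CRY, 4582 to 5824 CPM in CY and 4746 to 5454 CPM in GA. In the cuticle list the ranges of all diets overlapped, with 1603 to 2376 CPM in CRY, 1709 to 4519 CPM in CY and 2126 to 2579 CPM in GA. The part of any of these lists in the members' differences was not tested. The paper reports transcripts of peptidases, trypsin and chymotrypsin among them, as up-regulated on CY diets, above all at its lower temperature. The gut sum was below GA in every CY library. This sum adds carboxypeptidases and is weighted to the most abundant genes, so it does not give the direction of single transcripts. It is not a like measure to the paper's. The gut list holds digestive enzymes whose own RNA may change with diet. A level set against it is not a level per amount of gut. Set against the gut list of the same library, maltase KZS09326.1 had 42.2 to 47 CPM per 1000 CPM in CRY, 23 to 40.5 in CY + EPA, 39.5 to 45.3 in CY, 12 to 13.4 in GA + EPA and 10.6 to 12.1 in GA, and the ranges with and without green alga did not overlap. Maltase KZS06182.1 on the same measure had 4.81 to 6.18 in CRY, 3.26 to 5.28 in CY + EPA, 3.21 to 4.75 in CY, 3.14 to 5.38 in GA + EPA and 7.38 to 8.3 in GA, where GA + EPA overlapped the diets without green alga. Amylase KZS16400.1 had 33.2 to 37.9 in CRY, 47.6 to 65.9 in CY + EPA, 30.6 to 67.2 in CY, 37.8 to 41.4 in GA + EPA and 54.6 to 57.2 in GA, so that CRY lay below GA and the CY range held the GA range.

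Members varied within some diets more than other genes did. The median coefficient of variation over members was 8.69% in CRY, 22.6% in CY + EPA, 20.7% in CY, 44.3% in GA + EPA and 6.4% in GA, beside 10.6%, 11.7%, 16.1%, 13.7% and 8.25% over all genes. GA + EPA 1 was the lowest of its group for 43 of 58 members (74.1%), beside 32.2% of all genes and 71.7% of the gut list. CY + EPA 2 was the lowest of its group for 40 of 58 (69%), beside 37.4% of all genes and 56.6% of the gut list. These are 2 of the 3 libraries that stood apart by chi-square. Summed over the starch and maltose class, levels were 2710, 2336 and 2568 CPM in CRY, 1635, 816 and 2408 CPM in CY + EPA, 1572, 3062 and 1986 CPM in CY, 911, 1826 and 2577 CPM in GA + EPA, and 2385, 2428 and 2410 CPM in GA. The class sums of CRY and GA overlapped, although 2 members were called higher and 2 lower.

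**Figure D5:**
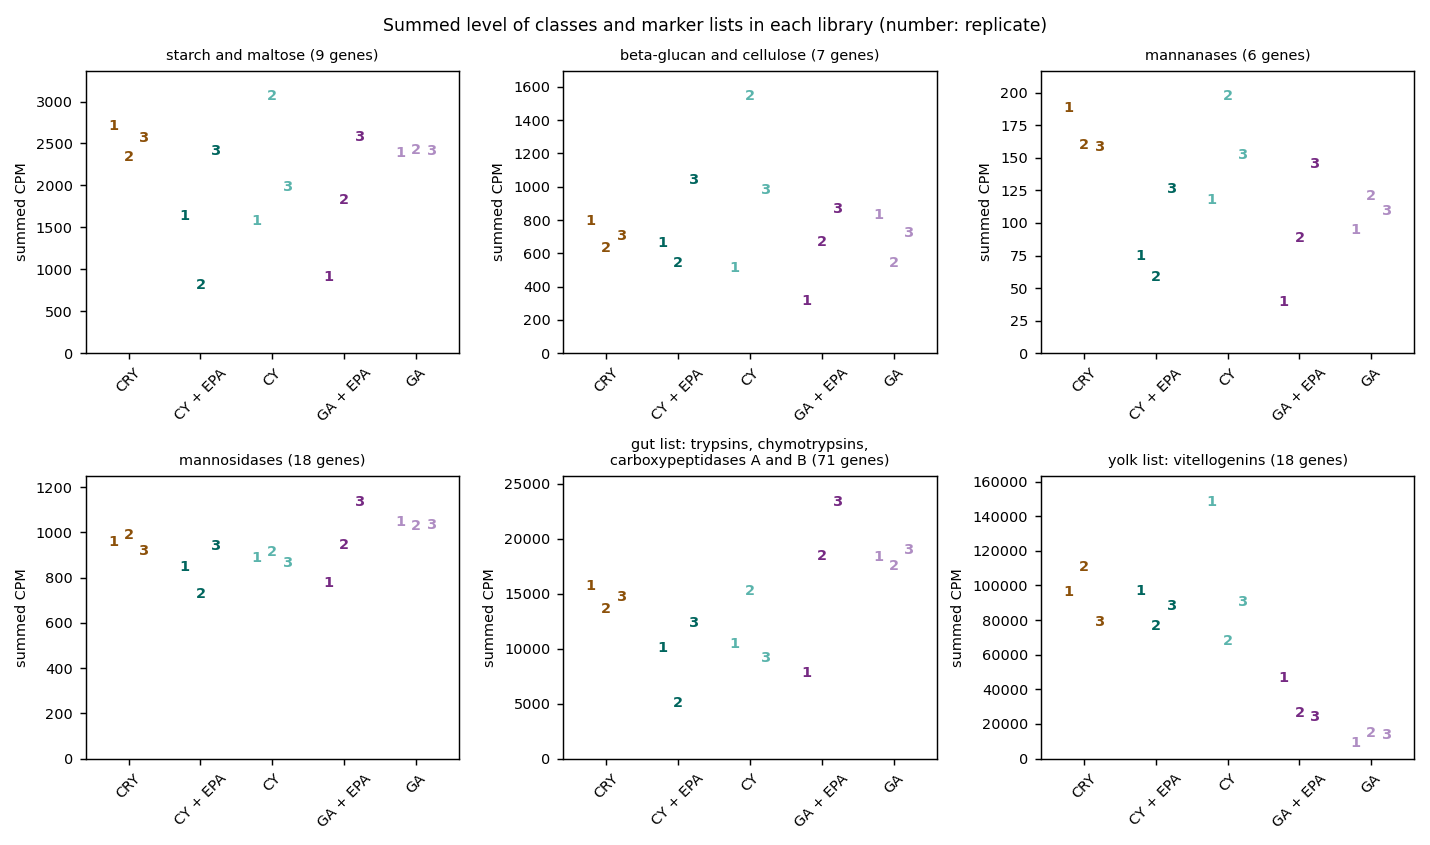
Summed CPM (TMM-scaled) in each library of the starch and maltose, beta-glucan and cellulose, mannanase and mannosidase classes and of the gut and yolk marker lists, with digits for the replicate. GA + EPA 1 is the lowest of its diet in the gut list and in all 4 classes, and the yolk list is lowest in GA.

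The EPA supplement gave no edgeR calls among members. In GA + EPA against GA, 0 of 57 members were called by edgeR, beside 0% of all genes tested. At an unadjusted p under 0.05 there were 11 members, beside 18.4% of all genes. That count was 24 without GA + EPA 1, 6 without GA + EPA 2, 21 without GA + EPA 3, 5 without GA 1, 3 without GA 2 and 6 without GA 3. The share of all genes at that p was not counted in these settings, so the swing cannot be called particular to members. DESeq2 called 1, beside 2.51% of all genes, alpha-amylase 1 KZS19963.1 (edgeR log2 fold change -2.29, SE 0.54, adjusted p = 0.122). In CY + EPA against CY, 0 of 58 members were called by edgeR and 0 by DESeq2, beside 0% of all genes tested by edgeR. At an unadjusted p under 0.05 there were 5, beside 1.93% of all genes. Without CY + EPA 3 there were 8, and without any other single library there were 4 to 7. Without the libraries that stood apart there were 10, a setting chosen after seeing the data. Here too the share of all genes was not counted. The 5 were neutral alpha-glucosidase AB KZS15279.1 (log2 fold change -0.84), mannanase KZS10753.1 (-1.62), mannanase KZS21774.1 (0.68), endoglucanase KZS07093.1 (0.53) and alpha-1.2-mannosidase KZS09114.1 (0.18), named because they were few. Mannanase KZS10753.1 had 16.0, 17.0 and 33.3 CPM in CY + EPA, against 43.3, 89.8 and 71.1 CPM in CY, and was 1 of 6 members whose levels did not overlap here, beside 6.57% of all genes.

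Whether EPA acted differently on the 2 basal diets was tested as an interaction over 12 libraries. It called 0 of 58 members in edgeR, beside 0% of all genes tested, and 0 in DESeq2. At an unadjusted p under 0.05 there were 5 members, beside 10.8% of all genes. Without CY 1 there were 9, without CY + EPA 2 there were 8, and without any other single library there were 4 to 7. Without the 3 libraries that stood apart there were 20. Each of these settings gave 0 called members, and the share of all genes at that p was not counted in them. Leaving out all 3 was a setting chosen after seeing the data, and it narrows the spread within groups.

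In CY + EPA against GA + EPA, where both diets held EPA, edgeR called 0 of 58 members, beside 0.147% of all genes tested (0.126% higher and 0.021% lower), with 10 at an unadjusted p under 0.05, beside 20.8% of all genes. DESeq2 called 2, beside 3.56% of all genes, alpha-1.2-mannosidase KZS09114.1 and endoglucanase KZS07093.1, a beta-glucan enzyme picked out here by this count. KZS09114.1 had the values given above and an edgeR log2 fold change of 0.59 (adjusted p = 0.0169). KZS07093.1 had 42.3, 41.9 and 37.3 CPM in CY + EPA, against 16.8, 21.4 and 22.1 CPM in GA + EPA, and 1.01 (edgeR adjusted p = 0.0245). Without CY + EPA 2 and GA + EPA 1, the libraries that stood apart, edgeR called 3 members, beside 2.3% of all genes. Endoglucanase KZS07093.1 and alpha-mannosidase KZS09601.1 were higher and lysosomal alpha-glucosidase KZS13425.1 lower. These libraries were picked after seeing the data as furthest from their groups, and leaving them out narrows the spread within groups. Leaving out GA + EPA 1 alone brought the count at an unadjusted p under 0.05 to 22, with 0 called. Any other single library left out gave 7 to 10. The share of all genes at that p was not counted in these settings.

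CRY against CY set the *Cryptomonas* diet against the cyanobacterium without EPA, which still carried cholesterol and a fatty acid supplement. EdgeR called 0 of 58 members, beside 0% of all genes tested, and 13 members had an unadjusted p under 0.05, beside 15.6% of all genes. DESeq2 called 5, beside 1.14% of all genes, all higher in CRY, chosen here by that count. They were maltase KZS06182.1 (edgeR log2 fold change 0.90), beta-galactosidase KZS05123.1 (0.68), alpha-amylase 1 KZS19963.1 (1.04), lysosomal alpha-glucosidase KZR99685.1 (0.89) and alpha-amylase-related protein KZS21471.1 (0.91). KZS06182.1 had 75.7, 84.2 and 79.5 CPM in CRY, against 49.6, 48.8 and 31.1 CPM in CY, without overlap. With CY 1 left out, edgeR called 1 member, KZR99685.1, beside 0.691% of all genes. The count at an unadjusted p under 0.05 was 27 without CY 1 and 8 without CRY 1, the highest and the lowest with a single library left out. The share of all genes at that p was not counted in these settings.

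Over all 5 diets at once, edgeR called 3 of 58 members, beside 8.12% of all genes tested, and 33 had an unadjusted p under 0.05, beside 41.4% of all genes. The 3 were KZS09114.1 (adjusted p = 7.1e-05), KZS15279.1 (0.0020) and endoglucanase KZS07093.1 (0.0055). KZS09114.1 had libraries close together in every diet, whereas KZS15279.1 ranged over 2.53 to 5.58 CPM in GA + EPA and KZS07093.1 over 27.6 to 45.1 CPM in CRY. Without the 3 libraries that stood apart, a setting chosen after seeing the data, the count was 26 of 58, beside 19.6% of all genes tested. Leaving out GA + EPA 1 alone gave 10, beside 11.2% of all genes. Leaving out CY 1 gave 6, beside 12.4%, and leaving out GA + EPA 3 gave 6, beside 6.78%.

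By group mean CPM, GA was the highest diet for 25 of 59 members, CRY for 15, CY + EPA for 11, CY for 5 and GA + EPA for 3. CY + EPA was the lowest diet for 27 members, GA + EPA for 11, GA for 8, CRY for 7 and CY for 6. The group means of CY + EPA and GA + EPA hold the libraries with low member levels named above. These counts include KZR98329.1, at 2 to 13 reads per library. They were not made over all genes, so whether the order of diets is particular to the members was not tested.

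Members lay on 47 scaffolds of the assembly, and 21 of them shared one of 9 scaffolds with another member. On scaffold LRGB01001725.1 the mannanases KZS10752.1 (13937 to 15504), KZS10753.1 (16134 to 17656) and KZS10754.1 (18358 to 19871) stood in a row on the plus strand, 629 and 701 bases apart. Across the 15 libraries log2 CPM of the first pair correlated at r = 0.87 and of the second at r = 0.482. These points share libraries and diets, so r is given as a description. The ratio of KZS10753.1 to KZS10754.1 was 1.55, 1.73 and 1.47 in CRY, 1.35, 2.82 and 1.93 in CY + EPA, 1.57, 5.57 and 4.3 in CY, 0.857, 0.737 and 1.13 in GA + EPA, and 0.875, 0.808 and 0.784 in GA. All 9 libraries without green alga had more of KZS10753.1 relative to KZS10754.1 than all 6 with it. The amylases KZS13652.1 and KZS13654.1 (3997 bases apart, r = 0.884) and the endoglucanases KZS16514.1 and KZS16516.1 (3847 bases apart, r = 0.842) were the other pairs with the highest correlations.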

How the data were processed

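Whole-animal RNA-seq of 15 libraries, 3 for each of 5 diets, was used, with groups taken from the labels. The authors trimmed reads with Trimmomatic and made expected counts and FPKM per gene with RSEM 1.2.31 and Bowtie2 against *D. magna* reference 2.4. The deposited expected counts were rounded to whole numbers here. The deposited FPKM were used to compare levels between genes. The 2 other measures per sample, TPM and effective length, were not used.

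Genes were filtered (filterByExpr), scaled (TMM) and tested with edgeR 4.0.16 (glmQLFit, glmQLFTest, R 4.3.3) on the 6 libraries of each pair of diets, 12 for the interaction and 15 for the test over diets. The Benjamini-Hochberg adjustment ran over all genes tested, and calls had an adjusted p no higher than 0.01. SE is the log2 fold change divided by the square root of F. The edgeR test was checked on counts simulated for CY against GA, and no other comparison was simulated. It recovered 55 of 100 genes changed by 1 on the log2 scale and 100 of 100 changed by 2, with 2 false calls. Alternatives were DESeq2 1.42.0, RLE size factors, all genes kept, 1 fit over 15 libraries, a replicate block, an adjusted p of 0.05, limma 3.58.1 on log2(FPKM + 0.1) and log2(FPKM + 1), each library left out, and, added after seeing the data, the 3 libraries that stand apart left out.

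The members, classes and marker lists were chosen with earlier results of these data known. Genes were named if called in a pairwise comparison, if among the 2 most abundant of their class by FPKM, or if named by the study. Other genes named are said in the text to have been picked after their values were seen, or were singled out by a count of 5 or fewer or by their length, depth or position. Depth was 18062681 to 22287959 summed counts per library. None of the identifiers matched the RefSeq gene table used here, so no sequences are shown.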

Additional observations from a re-analysis of the deposited data

How the results depend on the processing

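Of 45 fold changes followed, 32 of them called, 0 of 636 values under an alternative had the other direction. The called fold changes gave 448 values under alternatives, of which 112 were no longer called. Counts of members called are followed in brackets by the percentage of all genes tested in the same setting. In CRY against GA (20 called), an adjusted p of 0.05 gave 33 (30.2) and 1 fit over 15 libraries gave 2 (5.68). Leaving out a library there gave 16 to 23 (9.41 to 17.1). In CY against GA (12 called), an adjusted p of 0.05 gave 23 (14.4) and DESeq2 22 (12.6). There, 1 fit over 15 libraries gave 4 (6.13), with 4 higher and 0 lower, and leaving out a library gave 1 to 16 (0.783 to 8.73). On the FPKM scale the split of calls moved to 6 higher and 17 lower (pseudocount 0.1) or 7 and 16 (pseudocount 1) in CRY against GA, and to 1 and 12 in CY against GA, where the median of all genes was -0.18 (pseudocount 0.1) or -0.14 (pseudocount 1) on the log2 scale, beside about 0 after TMM. In CY + EPA against GA + EPA (0 called), an adjusted p of 0.05 gave 2 (1.53), DESeq2 2 (3.56) and 1 fit over 15 libraries 2 (2.42), and leaving out the libraries that stand apart gave 3 (2.3). In CRY against CY (0 called) DESeq2 gave 5 (1.14) and leaving out a library 0 to 1 (0 to 0.691). In GA + EPA against GA (0 called) DESeq2 gave 1 (2.51). Over 5 diets (3 called), an adjusted p of 0.05 gave 12 (24.01) and DESeq2 16 (24.1). FPKM gave 5 (9.83) with a pseudocount of 0.1 and 8 (10.4) with 1. Leaving out a library there gave 2 to 10 (3.37 to 12.4), and leaving out the libraries that stand apart gave 26 (19.6). The looser threshold can only add calls, and the causes of the other shifts were not tested. Leaving out a library changes both how many and which libraries are present. Replicate numbers did not pair the libraries: 8 of 30 same-numbered pairs correlated above 0.1 (range -0.311 to 0.595). A replicate block gave 24 calls (15.1) in CRY against GA, 1 (1.21) in CY against GA and 2 (4.89) over 5 diets.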
